A study of Mus musculus with 4 samples.

Results

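The guanylate-binding proteins are interferon-inducible GTPases, and the genes described here are Gbp2, Gbp3, Gbp4, Gbp5, Gbp6, Gbp7, Gbp8, Gbp9 and Gbp10. They were taken by gene symbol from the deposited expression table, and all 9 had a row among its 14936 genes. Hearts were compared from 2 mouse embryos at E18.5 that were Adar1 flox/flox with Nkx2.5-Cre Cre/WT, headed KO in the table and called mutants 51 and 54 here, and from 2 that were Adar1 flox/flox with Nkx2.5-Cre WT/WT, headed WT and called controls 47 and 50, all on a C57BL/6 background. Adar1 encodes an enzyme that deaminates adenosine to inosine in double-stranded RNA, and Nkx2.5-Cre expresses the Cre recombinase, which recombines DNA between loxP sites, from a gene of the early heart. Only the mutants carried Cre by their labels, so an effect of the Cre allele itself and one of the targeted Adar1 cannot be told apart. The comparison asks how expression of these genes differed between floxed hearts with and without Cre. In embryos with Cre the genotype field names wildtype and KO together, so groups rest on the sample titles, and every direction below is that of libraries so labelled. The targeted gene, listed as Adar, was at 195 and 213 CPM (read counts scaled to library size) in the mutant hearts 51 and 54, against 30.2 and 35.7 CPM in the control hearts 47 and 50. Which exons are floxed is not given in the labels, so this gene-level value, which goes against a loss of reads, checks no deletion. Nkx2-5, for which the Cre line is named, was at 69.2 and 92.8 CPM in the mutants, against 150 and 143 CPM in the controls (log2 fold change -0.86, adjusted p = 0.00802), and did not pass without control 47 or without control 50.

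Guanylate-binding proteins belong to the dynamin superfamily of large GTPases. Interferons induce them through STAT and IRF factors that bind the interferon-stimulated response element (ISRE) and the gamma-activated site (GAS). In mice the proteins gather on vacuoles of intracellular pathogens and on bacterial lipopolysaccharide, where they promote lysis and caspase-11 signalling. Some members, among them mouse Gbp2 and Gbp5, carry a C-terminal prenyl group that anchors them in membranes.

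In the GENCODE M21 annotation of GRCm38, 4 members lie on the plus strand of chromosome 3 within 144 kb. They are Gbp5 (ENSMUSG00000105504, 142493978 to 142522344), Gbp7 (ENSMUSG00000040253, 142530342 to 142550149), Gbp3 (ENSMUSG00000028268, 142560026 to 142573209) and Gbp2 (ENSMUSG00000028270, 142620602 to 142638008). The other 5 lie on the minus strand of chromosome 5 within 279.5 kb. They are Gbp8 (ENSMUSG00000034438, 105014150 to 105139540), Gbp9 (ENSMUSG00000029298, 105077630 to 105139539), Gbp4 (ENSMUSG00000079363, 105115767 to 105139586), Gbp10 (ENSMUSG00000105096, 105215699 to 105239533) and Gbp6 (ENSMUSG00000104713, 105270702 to 105293698).

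RefSeq promoter windows of GRCm38.p6, from 250 bases before to 50 after a start, were matched by symbol for 4 members in 5 windows: Gbp5, Gbp7, Gbp2 and Gbp3, which has 2. They are shown because interferon-responsive factors are known to act at such elements. Both strands were searched for the ISRE core, GAAA followed by any 2 bases and GAAA, and for the GAS core TTCNNNGAA, which is its own reverse complement. The stretches below run 5′ to 3′ on the plus strand, with capitals marking matches; an ISRE match reads on this strand as TTTC, any 2 bases and TTTC.
Gbp5, chr3:142496684-142496900: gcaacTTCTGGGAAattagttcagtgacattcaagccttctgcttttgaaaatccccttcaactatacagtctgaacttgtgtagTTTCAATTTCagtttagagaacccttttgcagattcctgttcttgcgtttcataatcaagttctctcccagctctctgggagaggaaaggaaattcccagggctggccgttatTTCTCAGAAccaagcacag
Gbp7, chr3:142530210-142530302: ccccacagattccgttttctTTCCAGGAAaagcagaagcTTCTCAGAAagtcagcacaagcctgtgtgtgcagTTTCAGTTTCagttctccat
Gbp3, chr3:142559979-142560024: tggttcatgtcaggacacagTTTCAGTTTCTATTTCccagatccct
Gbp2, chr3:142620584-142620623: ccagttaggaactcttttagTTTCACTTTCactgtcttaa
An ISRE core was found in 1 window of each of the 4 members, against 3.44% of all 32851 promoter windows. Its first base lay 165 bases before the start in Gbp5, 53 in Gbp7 and 59 in Gbp2. These starts are those of RefSeq and differ from the GENCODE gene starts above: the Gbp5 stretch lies inside the GENCODE gene, and 22 bases of the Gbp2 stretch lie in a GENCODE exon. Gbp3 held 2 overlapping ISRE matches, beginning 45 and 39 bases before the start, and its other window held neither core. GAS cores were found in Gbp5, 245 and 52 bases before the start, and in Gbp7, 106 and 87 bases before it, against 8.30% of all windows. Both cores together were present in 0.454% of all windows. These matches are descriptions of letters and not evidence of binding.

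All 9 guanylate-binding protein genes rose in the hearts labelled KO, and none fell. Gbp5 and Gbp10 were below 1 CPM in both controls and met the filter of 1 CPM in 2 libraries only through the mutants. Neither could therefore have been found lower. Of all 14869 genes tested, 17.8% rose and 14.2% fell, 31.9% in either direction. Rises made up 55.6% of these calls, against 43.4% under upper-quartile scaling and 44.4% under quantile normalization. Without control 47, 534 genes rose and 37 fell, and without control 50, 593 rose and 76 fell. The test was limma-trend on log2(CPM + 1) values with Benjamini-Hochberg adjustment over all of these genes and a threshold of 0.05. For all 9 members both mutants lay above both controls, as they did for 36.0% of genes tested, while 36.3% had both mutants below both controls. The members' median log2 fold change was 4.77, against -0.01 over all genes tested. The median stayed at 4.77 with Gbp10, at 0 in both controls, set to the floor of 3 reads per library. Each log2 fold change is the mutant mean minus the control mean of log2(CPM + 1), a scale on which low genes appear less changed than they are. For 8 of 9 members the log2 fold change was at least 3, as in 1.30% of genes tested. Gbp9, at 3.08, lay near this cut. It was below it with upper-quartile scaling (2.99), without mutant 51 (2.87) and without control 47 (2.75). Summed over the members, the level was 1513 and 1441 CPM in the mutant hearts 51 and 54, against 49.2 and 67.3 CPM in the control hearts 47 and 50. The mutants thus held a mean of 1477 ± 51.3 CPM and the controls 58.3 ± 12.8 CPM (SD, n = 2 each), a ratio of 25.3. For such a single value, 2 against 2 libraries give a smallest two-sided exact permutation p of 0.333, which was the p found. Whole hearts were used, so more expressing cells and more RNA per cell cannot be told apart. Of 10 macrophage markers 5 rose as well, 1, Mrc1, fell and 4 did not pass, and the part of cell types in the result was not tested.

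**Figure D1:**
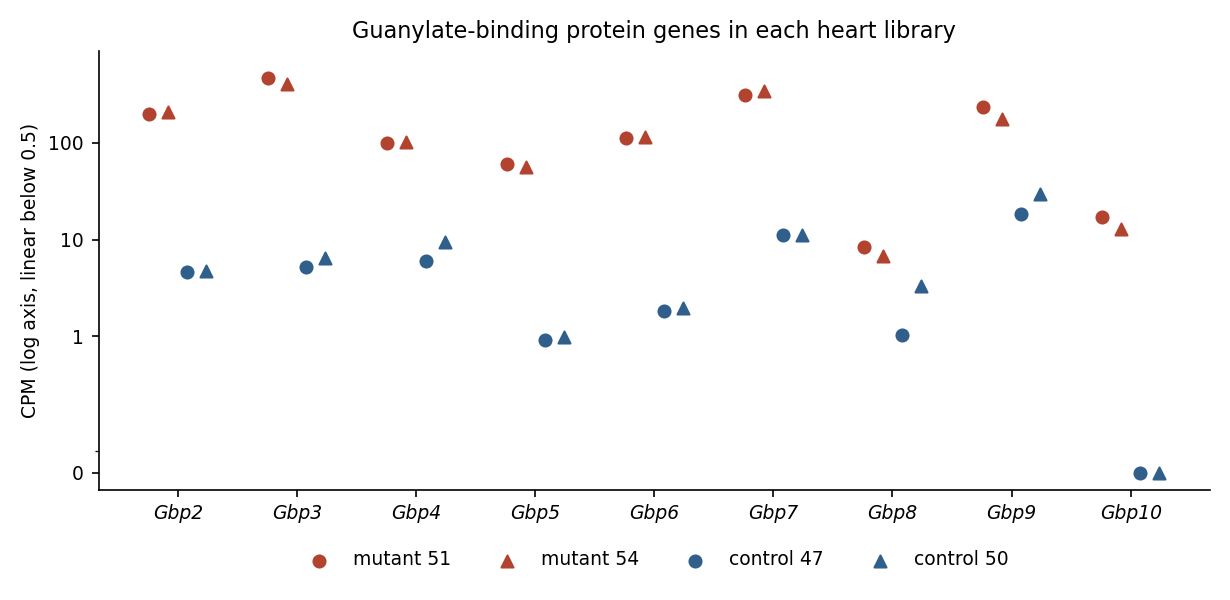
CPM of each member in each of the 4 heart libraries, on an axis that is logarithmic above 0.5 CPM, with mutants in red and controls in blue. Both mutants lie above both controls for all 9 genes, and Gbp10 is at 0 in both controls.

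Gbp3, on chromosome 3, had the largest log2 fold change of the 8 members with reads in the controls. Gbp10 had none there, so its fitted value depends on the method, at 3.99 here, 5.92 with a pseudocount of 0.25, 9.98 with edgeR and 9.35 with DESeq2, and it takes no place in such an order. Gbp3 stood at 467 and 410 CPM in the mutant hearts 51 and 54, against 5.17 and 6.36 CPM in the control hearts 47 and 50. Its log2 fold change was 6.02 (SE 0.14, adjusted p = 8.79e-07), which ranked 26 among all genes tested. Gbp2, a prenylated member needed in mice for control of Toxoplasma gondii, was at 201 and 209 CPM in the mutants, against 4.60 and 4.70 CPM in the controls. The replicates of Gbp2 lay close together in both groups, and the log2 fold change was 5.19 (SE 0.13, adjusted p = 1.04e-06). Gbp7, which in mice supports assembly of the phagocyte NADPH oxidase, had the highest control level of this cluster in CPM, with 312 and 349 CPM in the mutants, against 11.1 and 11.1 CPM in the controls. The fitted log2 fold change was 4.77 (SE 0.12, adjusted p = 1.04e-06). Gbp5, a prenylated member linked to inflammasome assembly, was at 60.8 and 56.9 CPM in the mutants, against 0.920 and 0.968 CPM in the controls. Few reads lie behind the low Gbp5 values, 8 and 7 reads in the control hearts 47 and 50 against 559 and 479 in the mutants. The log2 fold change of Gbp5 was 4.94 (SE 0.19, adjusted p = 6.27e-06), while the ratio of its pooled reads was 62.6 (exact 95% counting interval 37.8 to 112).

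On chromosome 5, Gbp8 had the smallest log2 fold change, and Gbp6 the largest of the members with reads in the controls. Gbp6 was at 111 and 116 CPM in the mutant hearts 51 and 54, against 1.84 and 1.94 CPM in the control hearts 47 and 50. The replicates of Gbp6 lay close together, but its control values rest on 16 and 14 reads. Its log2 fold change was 5.31 (SE 0.16, adjusted p = 2.24e-06), and the ratio of its pooled reads was 60.3 (exact 95% counting interval 42.1 to 89.6). Gbp10 was detected in the mutants alone, with 17.2 and 12.9 CPM, or 158 and 109 reads, against 0 reads in both controls. Set against the floor of 3 reads per library, Gbp10 was at least 39.7-fold higher in the mutants, with a limma adjusted p of 0.000120. Gbp4 was at 100.01 and 102 CPM in the mutants, against 5.98 and 9.40 CPM in the controls. The controls differed more than the mutants for Gbp4, and its log2 fold change was 3.58 (SE 0.20, adjusted p = 4.46e-05). Gbp9, which in mice is recruited to Toxoplasma vacuoles, had the highest control level of all members in CPM, with 236 and 178 CPM in the mutants against 18.51 and 29.6 CPM in the controls. The fitted log2 fold change was 3.08 (SE 0.23, adjusted p = 0.000182). Gbp8 stood apart as the smallest change, with 8.27 and 6.77 CPM in the mutants, against 1.03 and 3.32 CPM in the controls. These values rest on 76 and 57 reads in the mutants and 9 and 24 reads in the controls. The log2 fold change of Gbp8 was 1.52 (SE 0.38, adjusted p = 0.0236). Its call was lost without mutant 51 (adjusted p = 0.0664) and without control 47 (adjusted p = 0.141, log2 fold change 0.97), within a range over the alternatives from 0.0111 to 0.141.

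Gbp6 and Gbp10 are near copies, so the division of reads between them is uncertain. The longest open reading frames of their annotated transcripts were 98.4% identical over 1836 bases. Of the distinct 150-base stretches in Gbp10 transcripts, 49.7% also occurred in Gbp6 transcripts, and 66.6% occurred in some other gene. In Gbp6 transcripts, 59.1% of such stretches occurred in another gene. The other gene besides these members was Gm43302, a protein-coding model whose exons overlap both on the same strand and which had no row. Among the remaining chromosome 5 members, open reading frames of Gbp4, Gbp8 and Gbp9 were 92.9% identical between Gbp4 and Gbp8 and 89.6% between Gbp4 and Gbp9, yet they shared no stretch of 150 bases with another member. The first exons of these 3 genes coincide over 60 or 61 bases in the annotation, so position there does not tell the genes apart. A read of 150 bases reaches beyond this overlap. No stretch of this length in Gbp2, Gbp3 or Gbp5 occurred in another gene, and in Gbp7 8.77% did, in the pseudogene Gm43802. How the authors assigned reads with several possible origins is not given in the sources used here.

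**Figure D2:**
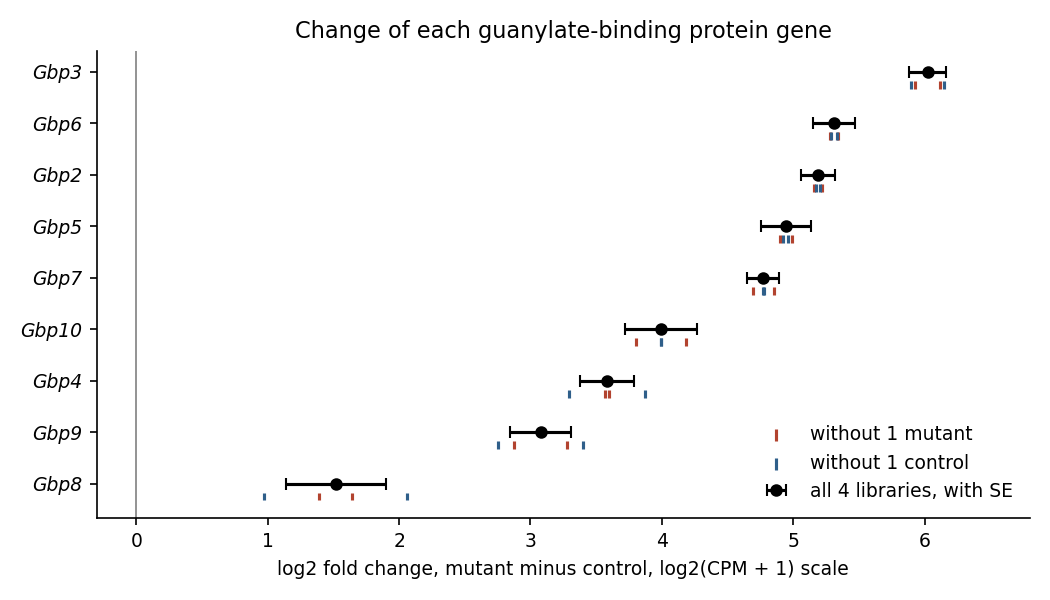
Log2 fold change of each member, as mutant minus control of log2(CPM + 1), with its standard error, and below it the values with 1 library left out. All values lie above 0, from 0.97 for Gbp8 without control 47 to 6.15 for Gbp3 without control 50.

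Mutants 51 and 54 did not order the members in one way. Of the 9 members, 5 were higher in mutant 51 and 4 in mutant 54, with ratios of mutant 51 to mutant 54 between 0.894 for Gbp7 and 1.33 for Gbp10. The spread between the mutants was thus far smaller than the distance to the controls for the members other than Gbp8. In the chromosome 3 cluster log2 fold changes lay between 4.77 and 6.02, with a median of 5.07. In the chromosome 5 cluster they lay between 1.52 and 5.31, with a median of 3.58. This range counts Gbp10 at its fitted 3.99, a value that depends on the method and exceeded that of Gbp6 with edgeR and DESeq2. The difference between the clusters was not tested. The authors' deposited table lists all 9 members at an FDR under 0.05, as it does 30.9% of its genes.

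Levels of different members were compared as CPM per kilobase of annotated exon. In the mutants the order was Gbp3 at 134 ± 12.3, Gbp2 at 81.4 ± 2.46, Gbp7 at 58.8 ± 4.66 and Gbp9 at 40.1 ± 7.97 CPM per kb (SD, n = 2). Gbp6 at 19.1, Gbp4 at 13.5, Gbp5 at 8.87, Gbp10 at 3.89 and Gbp8 at 2.18 CPM per kb followed, and no neighbours in this order had overlapping libraries. In the controls Gbp9 stood first, at 4.65 ± 1.52 CPM per kb, followed by Gbp7 at 1.98 ± 0.0108, Gbp2 at 1.85 ± 0.0293 and Gbp3 at 1.77 ± 0.258 CPM per kb (SD, n = 2). The libraries of Gbp2 and Gbp3 overlapped in the controls, as did those of Gbp4 and Gbp8 and those of Gbp8 and Gbp6. With the longest transcript as the length, the mutant order was the same, while in the controls Gbp3 moved ahead of Gbp7 and Gbp2.

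The make-up of the summed level per kilobase differed between the mutant and the control libraries. Gbp3 made up 38.4% and 35.7% of the members' summed level per kilobase in the mutant hearts 51 and 54, against 15.1% and 13.7% in the control hearts 47 and 50. Gbp9 made up 12.3% and 9.77% in the mutants, against 34.0% and 40.3% in the controls. Gbp2 also took a larger part, 21.4% and 23.6% in the mutants against 17.4% and 13.2% in the controls. Gbp7 overlapped between the groups, at 14.9% and 17.6% in the mutants against 18.9% and 13.9% in the controls. With the longest transcript as the length, Gbp3 was at 40.7% and 37.8% in the mutants against 16.5% and 15.0% in the controls, and Gbp9 at 10.95% and 8.74% against 31.3% and 37.0%. These shares are descriptions of 2 libraries per group.

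**Figure D3:**
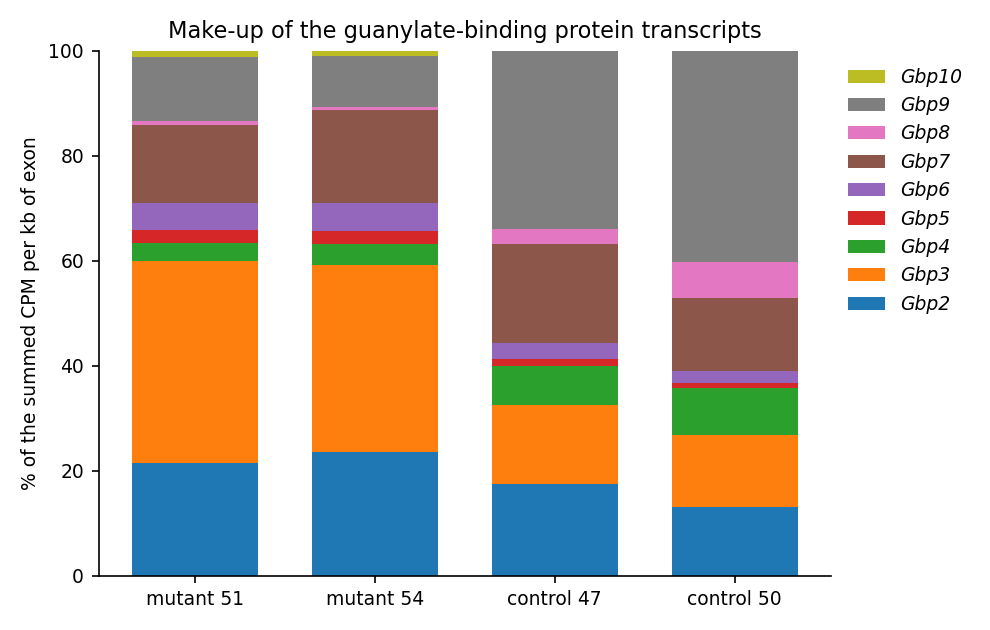
Share of each member in the summed CPM per kilobase of exon of the 9 members, in percent, in each library. Gbp3 takes the largest share in both mutants and Gbp9 in both controls.

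Another family gene with a row, Gbp11, lies beside Gbp6 and is annotated as a polymorphic pseudogene. It was at 11.3 and 12.6 CPM in the mutant hearts 51 and 54, against 0.115 and 0.691 CPM in the control hearts 47 and 50, log2 fold change 3.24 (SE 0.30, adjusted p = 0.000515). The family gene Gbp2b had no row. Inside the chromosome 3 cluster, the microRNA gene Mir6381 rose too, with 17.5 and 21.4 CPM in the mutants against 0.920 and 0.277 CPM in the controls (log2 fold change 3.70, SE 0.29, adjusted p = 0.000212). Mir6381 lies on the strand opposite to Gbp2 and shares 24 bases with a Gbp2 exon. The strand setting of the counting is not given in the sources used here, so its reads and those of Gbp2 cannot be told apart.

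Apart from Gbp11, genes outside the clusters had log2 fold changes between -1.27 and 1.41. Within 500 kb of either end, 7 other genes were measured around the chromosome 3 cluster and 6 around the chromosome 5 cluster. Around chromosome 3, Pkn2, a protein kinase gene, rose by 0.57 (SE 0.11, adjusted p = 0.00975), and Kyat3, which encodes a kynurenine aminotransferase, fell by 1.27 (SE 0.27, adjusted p = 0.0129). Pdlim5, Gtf2b, Bmpr1b, Gm15540 and Gm43646 did not pass the threshold. Around chromosome 5, Lrrc8d, which encodes a subunit of volume-regulated anion channels, was at 48.6 and 47.6 CPM in the mutants, against 17.5 and 17.4 CPM in the controls. It rose by 1.41 (SE 0.13, adjusted p = 0.000533), while its paralogs Lrrc8b and Lrrc8c, which lie nearer to the cluster, had log2 fold changes of -0.30 and -0.12 that did not pass. BC005561 and the noncoding D930016D06Rik rose by 1.08 and 0.75, and Zfp951 did not pass. Apart from Lrrc8d, each of these calls was lost without either control (47 or 50 left out, 1 at a time), and that of D930016D06Rik also without mutant 54.

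**Figure D4:**
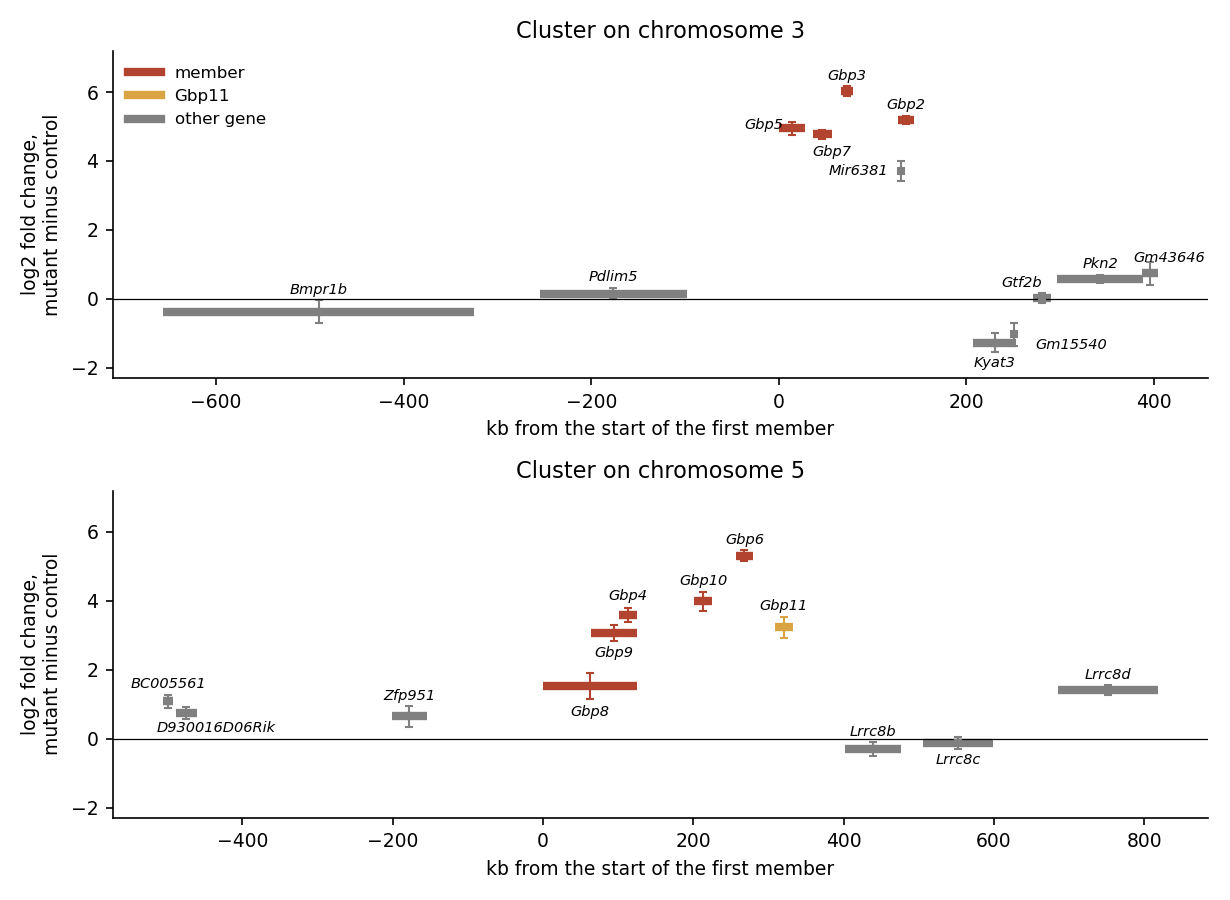
Log2 fold change with its standard error against distance in kb from the start of the first member, for the members in red, Gbp11 in yellow and other genes in grey; the bar length is the annotated gene. The members lie between 1.52 and 6.02, Gbp11 at 3.24, and the other genes outside the clusters between -1.27 and 1.41.

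Of the interferon ligands, receptors and JAK-STAT factors, 17 of 21 listed genes had a row, and 8 rose while 1 fell. Their median log2 fold change was 0.41, and it stayed there with Ifnb1 set to its floor. The ligand gene Ifnb1, which encodes interferon beta, was at 5.33 and 1.31 CPM in the mutant hearts 51 and 54 and at 0 in both controls (adjusted p = 0.0262). This call was lost without either control (adjusted p = 0.172 without 47 and 0.164 without 50) and with quantile normalization (0.0568). Ifng, which encodes interferon gamma, had no row. The receptor gene Ifngr2 was at 101 and 82.4 CPM in the mutants, against 148 and 135 CPM in the controls, and fell by 0.63 (SE 0.14, adjusted p = 0.0154), a call that was lost without either control. The other receptor genes, Ifnar1, Ifnar2, Ifngr1, Ifnlr1 and Il10rb, had log2 fold changes between -0.10 and 0.29 and did not pass.

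Of the 4 IRF genes listed, Irf1, Irf2 and Irf9 rose, while Irf8, at 0.41 (adjusted p = 0.136), did not pass. Irf2, at 1.38, and Irf8 were named after their values were seen. Stat2, a transcription factor downstream of type I interferon, was at 360 and 324 CPM in the mutants, against 18.7 and 20.6 CPM in the controls, with log2 fold change 4.05 (SE 0.12, adjusted p = 2.27e-06). Irf9, which binds DNA in complex with Stat2, was at 195 and 229 CPM in the mutants, against 17.9 and 22.1 CPM in the controls, with log2 fold change 3.35 (SE 0.15, adjusted p = 1.27e-05). Irf1, which activates Gbp genes in mouse cells, was at 112 and 99.4 CPM in the mutants, against 10.2 and 10.6 CPM in the controls, with log2 fold change 3.22 (SE 0.14, adjusted p = 9.94e-06). Stat2, Irf1 and Irf9 passed with each library left out in turn, while the count of rises in the list was 5 without either control.

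Immunity-related GTPases are interferon-induced GTPases that act with guanylate-binding proteins on pathogen vacuoles. The list under this name was wider and also held Gvin1, a very large inducible GTPase, at 2.04. Some of its 23 names are synonyms, such as Irga6 for Iigp1, so it covers fewer genes than names. It had 15 names in the table, and all 15 rose. Log2 fold changes of these 15 had a median of 5.15, also with the gene at 0 in the controls set to its floor. Iigp1, Irgm2, Igtp and Irgm1 had log2 fold changes of 6.44, 5.22, 5.79 and 5.15. Igtp and Irgm2 overlap on the same strand in the annotation, so the division of reads between them is uncertain. The summed level of the 15 genes was 2114 and 2131 CPM in the mutant hearts 51 and 54, against 41.1 and 49.9 CPM in the control hearts 47 and 50, a ratio of 46.6. A difference in response between this list and the guanylate-binding proteins was not tested. Among other dynamin superfamily GTPases 5 of 16 rose and 4 fell, with a median of 0.05. Mx1 and Mx2, antiviral dynamin-like GTPases, had log2 fold changes of 8.64 and 7.99. Atl3, an atlastin of the endoplasmic reticulum and a relative of the guanylate-binding proteins, rose by 0.91, and Ehd4, an endosomal membrane remodeller, by 1.09, and both calls were lost without either control. Without either control the list held 2 rises and 0 falls.

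Genes whose products act with guanylate-binding proteins in pyroptosis and membrane targeting were also counted. Of 12 inflammasome and pyroptosis genes 8 were tested, of which 2 rose and none fell, with a median of 0.50. Casp4, which encodes mouse caspase-11, was at 21.2 and 13.1 CPM in the mutant hearts 51 and 54, against 2.07 and 2.77 CPM in the control hearts 47 and 50, and rose by 2.38 (SE 0.28, adjusted p = 0.00159). Gsdmd, the pore-forming substrate of caspase-11, was at 37.5 and 21.6 CPM in the mutants, against 10.3 and 8.71 CPM in the controls, and rose by 1.49 (SE 0.26, adjusted p = 0.00745). Without control 47 neither call held (adjusted p = 0.0532 for Casp4 and 0.0928 for Gsdmd), and without control 50 that of Gsdmd was lost (0.104). Without mutant 54 the list had 4 rises and 1 fall. Aim2, a DNA sensor, and Pycard, the inflammasome adaptor, had log2 fold changes of 0.86 and -0.51 that did not pass. Of the 10 prenylation and CaaX processing genes, Pggt1b, the beta subunit of GGTase I, which prenylates CaaX proteins, rose by 0.84 (SE 0.15, adjusted p = 0.00819). Fnta, the alpha subunit of the prenyltransferases, fell by 0.70 (adjusted p = 0.0468), and Pde6d, a chaperone of prenylated proteins, fell by 0.47 (adjusted p = 0.0445). Icmt, which methylates prenylated CaaX proteins, did not pass, at -0.41 (adjusted p = 0.0644). The list's median was -0.10, and 0 of its genes passed without either control. The calls of Fnta and Pde6d were also lost without mutant 51, that of Fnta with edgeR and that of Pde6d with DESeq2. Of the 12 genes of the ATG8 conjugation machinery, which in mice is needed to place these GTPases on vacuoles, Atg3 rose by 0.91, and Map1lc3a, Map1lc3b and Gabarapl2 fell by 1.05, 0.89 and 0.68, with a median of -0.16. Atg5 and Atg7 had log2 fold changes of 0.13 and -0.15 and did not pass, and none of the list passed without either control, while 2 rose without mutant 54.

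**Figure D5:**
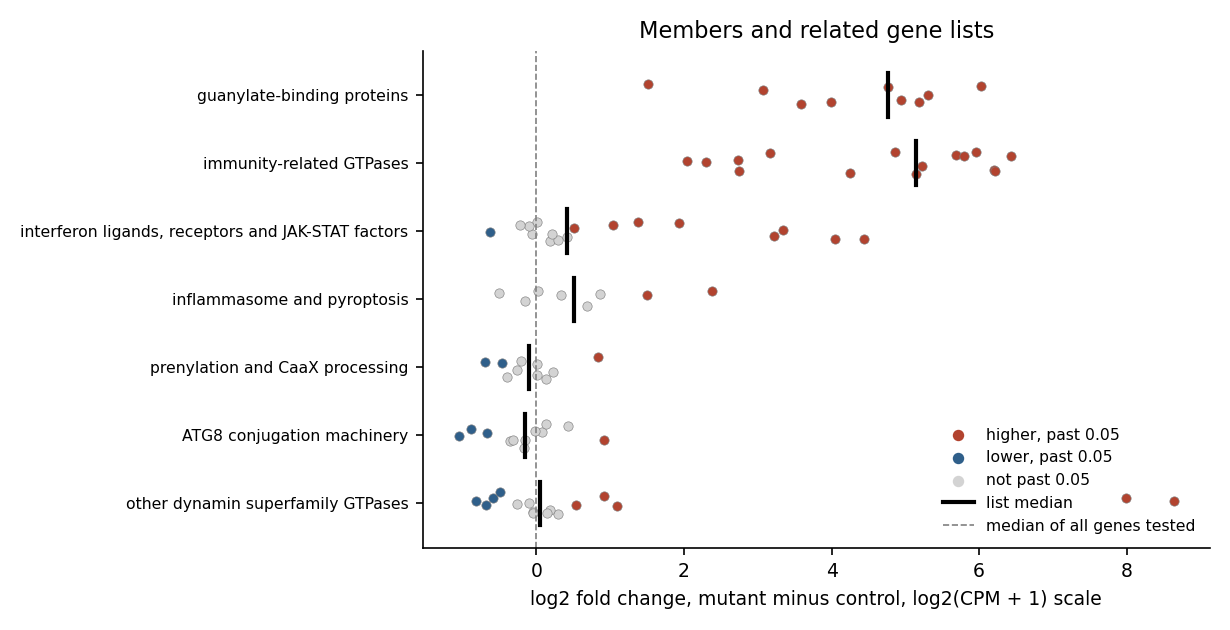
Log2 fold change of each tested gene, as mutant minus control of log2(CPM + 1), by list, with list medians in black and the median of all genes tested dashed. The 9 members and the 15 genes of the immunity-related GTPase list lie wholly above 0, with medians of 4.77 and 5.15. The medians of the other lists lie between -0.16 and 0.50.

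Likeness to the members was measured as the Euclidean distance, over the 4 libraries, of mean-centred log2(CPM + 1) values from the median profile of the 9 members. The nearest non-members were Tor3a (distance 0.135), Rnf213 (0.191), Atf3 (0.230), Egr1 (0.244) and Asns (0.296). Among the members Gbp7 was nearest to this profile at 0.0424, and Gbp8 farthest at 3.34. Tor3a, an interferon-inducible torsin ATPase, was at 359 and 364 CPM in the mutant hearts 51 and 54, against 11.6 and 11.3 CPM in the control hearts 47 and 50. Rnf213, a large ubiquitin ligase with antimicrobial activity, was at 1929 and 2067 CPM in the mutants, against 78.05 and 85.9 CPM in the controls. Atf3 and Asns belong to the stress response and Egr1 is an immediate early gene. With 4 libraries in 2 groups, this measure reflects mainly the size of the group difference.

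Cell type markers that moved with the groups are given as sums of CPM, and their part in the results was not tested. The 10 cardiomyocyte markers, all present, summed to 22383 and 33727 CPM in the mutant hearts 51 and 54, against 53075 and 43149.8 CPM in the control hearts 47 and 50, with 3 falling. The 10 macrophage markers summed to 215 and 158 CPM in the mutants, against 161 and 140 CPM in the controls. The groups overlapped for this sum, while 5 of these markers rose, Fcgr1 with log2 fold change 2.55, and Mrc1 fell. Of 13 T and NK cell markers 11 had no row, and the other 2, Gzma and Gzmb, summed to 12.5 and 1.66 CPM in the mutants, against 0.345 and 0.553 CPM in the controls. The B cell list was represented by Pax5, at 5.01 and 2.02 CPM in the mutants against 0.115 and 0 CPM in the controls, and it rose. Neutrophil markers present in the table, 2 of 6, summed to between 2.64 and 5.81 CPM over the 4 libraries. The 8 endothelial markers did not pass the threshold, and of 8 fibroblast markers 3 fell, with sums of 4643 and 5501 CPM in the mutants against 8803 and 7139 CPM in the controls. Erythroid markers, 8 in number, summed to 690 and 5164 CPM in the mutants, against 5739 and 13194 CPM in the controls, and did not pass. Of 5 lung markers 2 had a row, and both fell.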

How the data were processed

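Libraries of the 4 hearts were directional and poly(A)-selected, with paired reads of 150 bp, per the labels' protocols. GRCm38, STAR, fastp 0.20.0, DESeq and edgeR 3.10 appear in the submitters' processing notes with no stated role. Which tool counted reads, with what strand setting and on which annotation, is not given in the sources used here. A table was deposited by the authors whose 4 value columns are headed CPM, a read signal scaled to effective library sizes. Other columns hold, per the file headers, the authors' mean log2 CPM, p-value, FDR and their F and logFC scores. The logFC score did not equal the log2 ratio of the CPM columns, so fold changes come from the CPM columns themselves. For all 9 members it had the same sign as the edgeR log2 fold change on recovered reads and was smaller by a similar factor. It was 2.73 against 5.46 for Gbp2, 0.911 against 1.82 for Gbp8 and 4.99 against 9.98 for Gbp10. The scale of the score is not given in the sources used here.

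Divided by the smallest step of their column, 100% of values were whole within 0.001, which gave 8593443 and 8444488 reads in mutants 51 and 54 and 8998872 and 7457103 in controls 47 and 50 on the listed genes. Genes with low values are absent, and the smallest row maximum was 2.29 CPM. GENCODE M21 names matched 14916 identifiers, and 20 symbols stored as dates were restored. Counting intervals are exact binomial at 95%, and intervals and floors (3 reads) cover counting error only.

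The test had been planned for CPM. The column sums of 3 libraries exceeded that of true CPM, so the values are reads over effective library sizes, and the planned test was kept. Genes reaching 1 CPM in no fewer than 2 libraries were tested with limma-trend (limma 3.58.1, R 4.3.3) on log2(CPM + 1), with genotype as the only term. edgeR 4.0.16 and DESeq2 1.42.0 on recovered reads were alternatives. The fit was also run on simulated counts in which few genes changed and every gene had the same spread setting. That setting is simpler than these data, so the run does not show how the fit performs on them. Each library is a separate embryo, with 2 per group. In limma-trend each gene's variance is drawn toward a trend fitted over all genes tested. Its p-values therefore combine a gene's own variation within the groups with that of other genes. The members and lists were chosen with earlier results of these data known. Members were all named, and from each list up to 4 genes with the smallest adjusted p, together with interferons, their receptors, Stat2, Irf1, Irf9, Casp4, Gsdmd, Atg5 and Atg7. Further rules named the 5 genes nearest in profile, genes within 500 kb of a cluster, and Adar and Nkx2-5 as label checks. A further gene that the rule names is not reported here. Cell type markers were given by list, and those named singly there were chosen after their values were seen.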

Additional observations from a re-analysis of the deposited data

How the results depend on the processing

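All 9 members kept their direction in every alternative run, and all stayed past the threshold except Gbp8, at 1.39 without mutant replicate 51 and 0.97 without control replicate 47 (range with 1 library left out 0.97 to 2.06). No paired analysis was possible because the groups share no replicate number. With 1 library left out, genes that rose numbered 534 to 2905 and genes that fell 37 to 2750, the lone library being assumed to vary like the other group. Upper-quartile scaling gave 2251 rises and 2937 falls, and quantile normalization 2188 and 2738, against 2643 and 2107. On recovered reads edgeR gave 2628 rises and 2022 falls, and DESeq2 2118 and 1556.

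Over the leave-one-out fits the interferon and JAK-STAT list had 5 to 9 rises and 0 to 1 falls, the inflammasome list 0 to 4 rises and 0 to 1 falls, and prenylation genes 0 to 1 rises and 0 to 2 falls. The ATG8 list had 0 to 2 rises and 0 to 3 falls, and the dynamin superfamily 2 to 5 rises and 0 to 5 falls, and immunity-related GTPases 14 to 15 rises. The edgeR and DESeq2 tests on recovered reads each left 1 fall among prenylation genes. With the longest transcript as length, mutant levels per kb were 163 for Gbp3, 22.3 for Gbp4, 15.7 for Gbp5 and 26.8 for Gbp6. Signs reversed for 5 genes that did not pass. With upper-quartile scaling the log2 fold change was -0.0831 for Ifnar1 and -0.0731 for Gtf2b, and with quantile normalization -0.0925 and -0.0796. With 1 library left out it ranged from -0.0729 to 0.0868 for Ifnar1, from -0.104 to 0.137 for Gtf2b, from -0.0456 to 0.304 for Atg5, from -0.0112 to 0.315 for Pdlim5 and from -0.313 to 0.0732 for Lrrc8c. The cause was not tested. Depth limits Gbp8, Gbp10, Gbp5, Gbp6 and Ifnb1, with few or no reads in the controls.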
